A study of Mus musculus with 8 samples.

Results

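The genes described are 9 of the transcripts that cells make first when serum or a growth factor reaches them: the early growth response genes Egr1, Egr2, Egr3 and Egr4, the immediate early response genes Ier2 and Ier5, and Srf, Nr4a1 and Myc. They were taken by symbol from a table of 45706 gene rows, and all 9 had at least 10 counts in at least 2 libraries, as had 15049 genes in all. RNA bound to chromatin, which is rich in transcripts that are still being made, was sequenced from primary embryonic fibroblasts of C57BL/6 mice. Wild-type (WT) cells and crel-/-rela-/- cells (KO), which lack the NF-kB subunits cRel and RelA, were kept overnight in low serum. The cytokine tumour necrosis factor (TNF) was then added at 10 ng/ml for 15, 45 or 60 min, and cells at 0 min served as the control. Each genotype and time has 1 library, 8 in all, and nothing in the labels says whether they came from separate cultures or embryos. No untreated library was taken at 15, 45 or 60 min, so an effect of TNF cannot be told apart from one of elapsed time or handling. The series title asks how RelA controls its targets in inflammation, and these genes show which early transcripts changed in cells with and without RelA and cRel.

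SRF, the serum response factor, binds DNA at a motif called the CArG box and recruits either ternary complex factors, which the ERK kinases phosphorylate, or the actin-regulated MRTF coactivators. The EGR proteins are zinc finger transcription factors whose genes are textbook targets of SRF, and the NAB proteins bind EGR proteins and repress them. Nr4a1 encodes an orphan nuclear receptor that is also controlled by CREB, Ier2 and Ier5 encode small nuclear proteins, and Myc encodes a transcription factor of cell growth that pairs with MAX. TNF is known for NF-kB activation in fibroblasts, but it also activates the MAP kinases.

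The libraries held 12359817 to 15607331 counts, of which 55.49% to 68.29% fell on 2 neighbouring gene models of chromosome 17, Gm26917 and Gm42418. The other rows shared 4303446 to 6175359 counts per library. A floor of 3 counts corresponded to 0.18 to 0.265 CPM (counts relative to library size, scaled by the trimmed mean of M values, TMM). Both targeted genes gave exonic counts in KO, 241 to 324 for Rela against 324 to 704 in WT, and 308 to 633 for Rel against 151 to 805. With the deleted part not given in the sources used here, these counts check nothing. The late response of 8 of 8 NF-kB response genes was larger in WT, by a median of 4.52 on the log2 scale, against 0.492% of all genes. This list was chosen with earlier results of these data known, so it is no independent check of the labels. The 10 fibroblast markers summed to 9030 to 11500 CPM in WT and 9910 to 13300 in KO. Leukocyte markers summed to 49.5 to 68.1 CPM in WT and 6.04 to 8.13 in KO, with Cd3e at 0 in every library. Cartilage markers summed to 7.27 to 11.5 CPM in WT and to 20.2 to 49.9 in 3 KO libraries, but to 398 CPM in KO at 0 min, which stands apart. Counts of calls from the additive fit are therefore also given without it for the genes described, and in part for the gene lists. Counts of marker calls were not computed without it. Ratios that involve KO 0 min and the differences between genotypes in the change from 0 min rest on it and have no value without it. Endothelial markers summed to 3.69 to 5.3 CPM in WT and 8.98 to 14.7 in KO, epithelial markers to 0.867 to 1.22 and 2.03 to 11.4, and skeletal muscle markers (Myod1 at 0) to 1.08 to 2.2 and 5.03 to 7.07. Erythroid markers summed to at most 0.216 CPM.

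RefSeq promoter windows (GRCm38.p6, 250 bases before to 50 after a start site) were found for 5 of the 9 genes, namely Egr2 (5 windows), Egr4, Ier5, Nr4a1 and Srf. The windows of Srf and Egr2 are shown because they hold the letters that SRF itself reads, and that of Nr4a1 because it holds repeated letters read by CREB. The sequences below are the 200 bases upstream of a start, on the strand of the gene, for Srf at chr17:46556163-46556362 (minus strand), Egr2 at chr10:67537669-67537868 (plus strand) and Nr4a1 at chr15:101266646-101266845 (plus strand). Capitals mark the CArG box in Srf and Egr2, and in Nr4a1 the CREB core site TGACG, which reads CGTCA on the strand printed.
Srf: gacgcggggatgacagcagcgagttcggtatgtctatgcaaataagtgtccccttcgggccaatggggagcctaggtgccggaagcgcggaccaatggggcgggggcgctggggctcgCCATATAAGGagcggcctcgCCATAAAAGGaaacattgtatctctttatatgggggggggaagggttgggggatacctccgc
Egr2: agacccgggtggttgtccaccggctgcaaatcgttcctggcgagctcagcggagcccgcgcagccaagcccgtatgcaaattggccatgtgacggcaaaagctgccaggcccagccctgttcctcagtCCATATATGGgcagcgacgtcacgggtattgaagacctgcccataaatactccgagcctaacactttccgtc
Nr4a1: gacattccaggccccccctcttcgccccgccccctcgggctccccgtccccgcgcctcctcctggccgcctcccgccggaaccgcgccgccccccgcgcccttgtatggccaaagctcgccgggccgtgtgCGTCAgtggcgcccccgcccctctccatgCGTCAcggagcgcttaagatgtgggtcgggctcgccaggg
In Srf, CArG boxes began at -82 (CCATATAAGG) and -62 (CCATAAAAGG), counted from the start site. In Egr2 the box CCATATATGG stood in 3 overlapping windows, at -72 in the printed window, and CCTTTTTTGG stood at -72 in another. Of all 32851 windows searched on both strands, 1.63% held a CArG box. Nr4a1 held TGACG at -233, -213, -69 and -40, of which -69 and -40 lie in the bases printed, and Egr4 held it at -177 and -109. The printed Egr2 window held it at -111 and -55, and Srf held it at -201, which begins 1 base before the stretch shown. These short letters occurred in 20.8% of all windows. The EGR site GCGNGGGCG, in 5.55% of windows, began at -101 in Srf and at -60 in Nr4a1. The searched NF-kB site (GGG, any 2 bases, then TTTCC), in 1.63% of windows, was in none of the windows of these 5 genes. A match describes letters and is not evidence of binding.

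The 9 genes are short and lie on 8 chromosomes (mm10, coordinates of the deposited table). Egr1 (chromosome 18, 34859823 to 34864984, plus strand), Egr3 (chromosome 14, 70077445 to 70080157, plus) and Egr4 (chromosome 6, 85511121 to 85513589, minus) each have 2 exon blocks, and Egr2 (chromosome 10, 67535475 to 67542188, plus) has 5. Ier2 (chromosome 8, 84661331 to 84662852, minus) and Ier5 (chromosome 1, 155096361 to 155099636, minus) are single-exon genes, so every base of these loci is exonic. Srf (chromosome 17, 46546839 to 46556162, minus) has 7 exon blocks, as has Nr4a1 (chromosome 15, 101266846 to 101274792, plus), and Myc (chromosome 15, 61985341 to 61990374, plus) has 4. Srf overlaps Gm26904 on the opposite strand, which had 8 counts over all libraries, and Mir6976 on its own strand, which had 40.

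Per exon length, Ier2 and Egr1 gave the most RNA of the 9 and Egr4 the least. Mean levels over the 8 libraries were 18.5 RPKM (the CPM divided by exon length in kilobases) for Ier2 (9.33 to 45.6) and 18.4 for Egr1 (6.6 to 48.1), both at percentile 96.1 of tested genes. They were followed by Ier5 at 13.1 RPKM (7.92 to 19.5), Nr4a1 at 11.6 (5.28 to 32.0), Srf at 9.1 (2.97 to 16.8) and Myc at 7.74 (3.42 to 12.2). Egr3 had a mean of 7.07 RPKM (3.01 to 18.6) and Egr2 one of 3.89 (1.57 to 10.1). Egr4 had 0.381 RPKM (0.0836 to 0.987), percentile 10.3. The ranges of neighbours in this order overlap except between Egr2 and Egr4. The highest library exceeded the lowest 7.28-fold for Egr1 and 2.47-fold for Ier5, the widest and the narrowest range among the 8 genes other than Egr4.

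Within 15 min of TNF, transcripts of Egr3, Ier2, Ier5 and Nr4a1 rose across the genotypes, by 2.14-fold (Ier5) to 2.88-fold (Egr3). The other 5 genes also had higher values at 15 min, and 8 of the 9, all but Myc, had both 15 min libraries above both 0 min libraries, as had 17.0% of tested genes. In this comparison 4 of the 9 genes passed the test and rose, against 0.126% of all tested genes that rose and 0.0133% that fell (19 and 2 genes). The median log2 difference was 1.38 for the 9 genes and 0 for all genes. The same 8 genes were highest at 15 min in both genotypes, as were 10.0% of tested genes, and the plot of CPM by time shows the course of each.

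**Figure D1:**
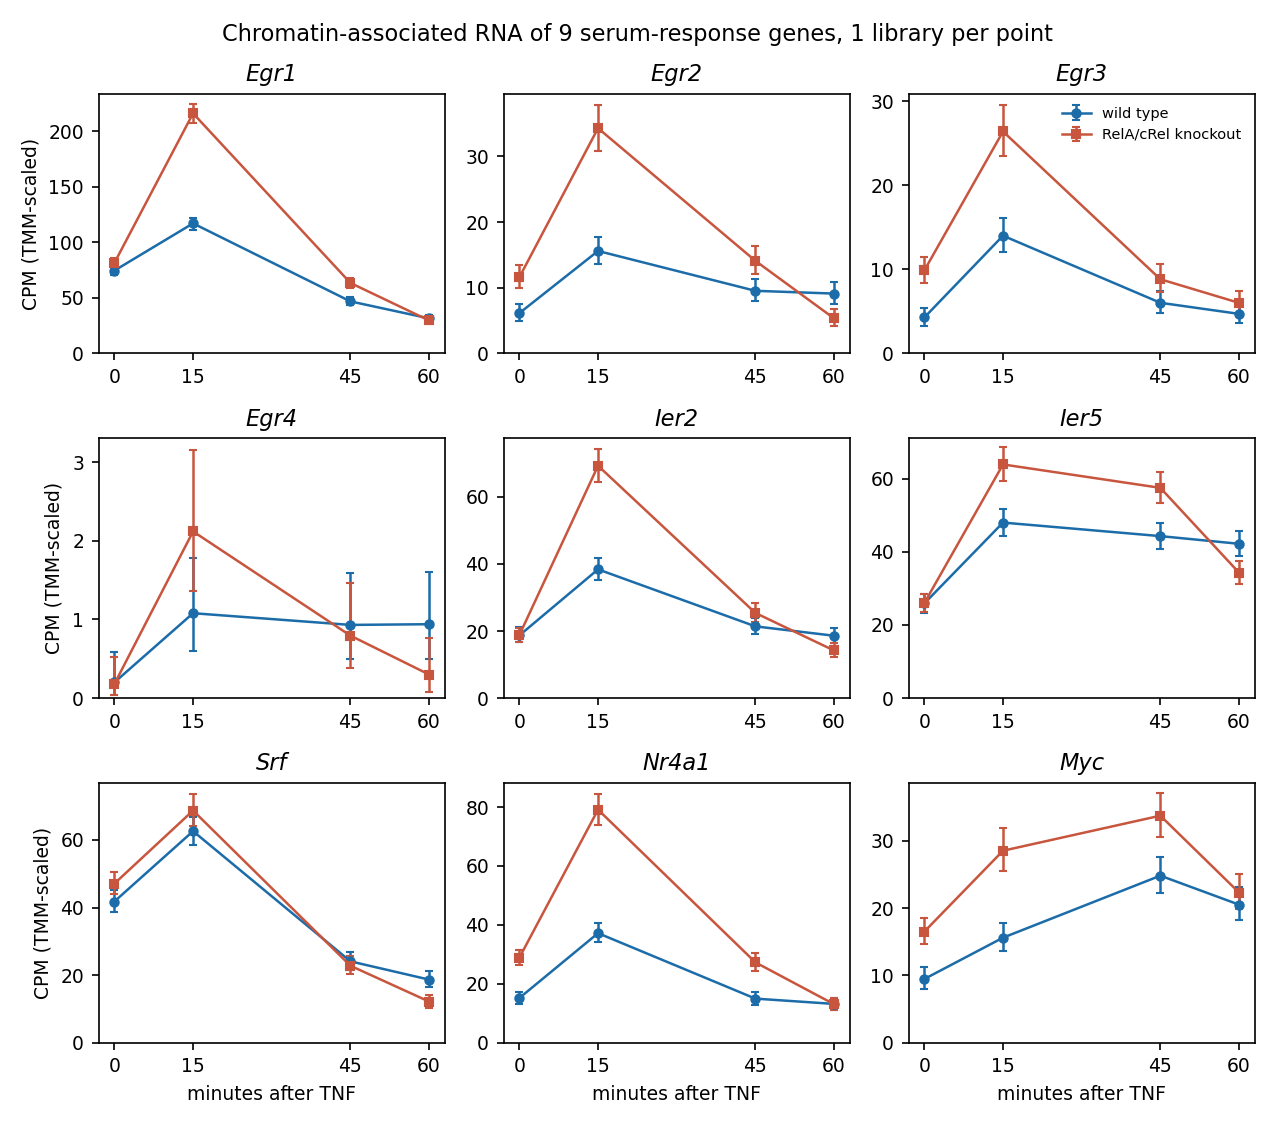
TMM-scaled CPM (vertical axes, each gene on its own scale from 0) against minutes after TNF, with 1 library per point, WT as blue circles and KO as red squares, and bars for the 95% counting interval. 8 of the 9 genes are highest at 15 min in both genotypes, and Myc is highest at 45 min.

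Egr1 stood at 74.5, 117, 46.8 and 31.5 CPM in WT and 81.4, 216, 63.4 and 29.6 in KO at 0, 15, 45 and 60 min. KO at 15 min is the highest library, and both 60 min libraries are the lowest. The 15 min difference was 1.05 ± 0.19 (log2 fold change ± SE), which missed the threshold (edgeR quasi-likelihood test, adjusted p = 0.123). Egr2, known from hindbrain patterning and myelination, stood at 6.13, 15.6, 9.53 and 9.11 CPM in WT and 11.6, 34.3, 14.1 and 5.33 in KO. Its 15 min libraries were the highest of each genotype, with a difference of 1.46 ± 0.33 (adjusted p = 0.274).

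Egr3 stood at 4.27, 14.0, 6.02 and 4.7 CPM in WT and 9.87, 26.4, 8.82 and 6.01 in KO. Both 15 min libraries lie above all 6 others. Egr3 rose by 1.52 ± 0.19 (adjusted p = 0.0196). Egr4 was near the floor at 0 min, with 3 counts in each genotype, and then gave 15, 13 and 13 counts at 15, 45 and 60 min in WT. The KO libraries gave 24, 10 and 4. The fitted 15 min difference of 2.99 ± 0.67 rests on these few counts (adjusted p = 0.264). The ratio of 15 min to 0 min for Egr4 was 5.4 in WT (95% counting interval 1.53 to 29.1) and 11.8 in KO (3.59 to 61.3).

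Ier2 stood at 18.7, 38.4, 21.4 and 18.6 CPM in WT and 18.8, 69.3, 25.4 and 14.2 in KO. It started at nearly the same level in the genotypes, and both 15 min libraries lie above all others. Ier2 rose by 1.49 ± 0.23 (adjusted p = 0.0496). Ier5, known for its links to heat shock factor activity, stood at 25.9, 48.0, 44.3 and 42.2 CPM in WT and 26, 63.9, 57.5 and 34.3 in KO. It rose by 1.1 ± 0.17 (adjusted p = 0.0496), and all 6 libraries after TNF lie above both 0 min libraries. Nr4a1 stood at 15.2, 37.2, 15.0 and 13.2 CPM in WT and 28.9, 79.1, 27.3 and 13.1 in KO. It rose by 1.38 ± 0.21 (adjusted p = 0.0496), and both 15 min libraries are its highest.

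Srf stood at 41.8, 62.6, 24.1 and 18.7 CPM in WT and 47.1, 68.7, 22.8 and 12.2 in KO. The genotypes track each other closely up to 45 min. Its 15 min difference was 0.56 ± 0.17 (adjusted p = 0.482), the smallest of the 9. Myc stood at 9.47, 15.6, 24.8 and 20.5 CPM in WT and 16.5, 28.5, 33.7 and 22.3 in KO, so that WT at 15 min lay below KO at 0 min. Its 15 min difference was 0.76 ± 0.18 (adjusted p = 0.340).

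The 15 min calls are marginal. The 4 called genes became 9 when low counts were left unfiltered and 6 by DESeq2, but 1 with RLE scaling or with the dominant rows removed, and 0 with at least 50 counts required or without genotype as a block. Leaving out a library gave 0 calls (WT 0 min or KO 15 min out), 1 (KO 0 min, WT 45 min or KO 45 min out), 2 (WT 15 min out) or 6 (WT 60 min or KO 60 min out), while all 9 differences stayed above 0 in every alternative run. Scaling to total counts shifted the median of all genes by -0.34, which took the lower calls among all genes from 2 to 162 and the higher calls from 19 to 22 (12.0% higher in place of 90.5%). The members' calls stayed at 4 with total counts and with limma-voom. Cartilage markers moved the other way in the same comparison, with 2 of 5 lower at 15 min, and their part in the result was not tested. Their sum went from 398 to 20.2 CPM in KO and from 10.5 to 7.27 in WT. The fall therefore rests mainly on the KO 0 min library.

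By 45 and 60 min, most of these transcripts had fallen below their 15 min level. Egr1, Egr2, Egr3, Ier2, Srf and Nr4a1 fell, 6 of the 9, against 5.04% of all genes that fell and 5.87% that rose (53.8% of calls higher, or 82.1% with total counts). The mean of the late libraries was 2.55-fold (Egr2) to 3.94-fold (Egr1) below 15 min for these 6 genes. In 7 of the 9 genes, all but Ier5 and Myc, every one of the 4 late libraries lay below both 15 min libraries, a pattern held by 13.9% of tested genes. The median log2 difference was -1.43 for the 9 genes and 0 for all genes.

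Egr1 fell by 1.98 ± 0.16 on the log2 scale and Srf fell by 1.79 ± 0.14 (adjusted p = 0.000308 for each). Nr4a1 fell by 1.73 ± 0.18 (adjusted p = 0.000702), and Egr3 fell by 1.64 ± 0.16 (adjusted p = 0.000639). Ier2 fell by 1.43 ± 0.19 (adjusted p = 0.00251) and Egr2 fell by 1.35 ± 0.28 (adjusted p = 0.0161). Differences that missed the threshold were -1.09 ± 0.46 for Egr4 (adjusted p = 0.153), -0.33 ± 0.14 for Ier5 (adjusted p = 0.157) and 0.23 ± 0.15 for Myc (adjusted p = 0.371). The call for Egr2 was lost without WT 15 min (-1.75), KO 15 min (-0.90) or KO 45 min (-1.36), and only the calls of Egr1 and Srf held without genotype as a block. The other 5 calls held whichever library was left out, and no sign of the 9 turned in any alternative run.

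**Figure D2:**
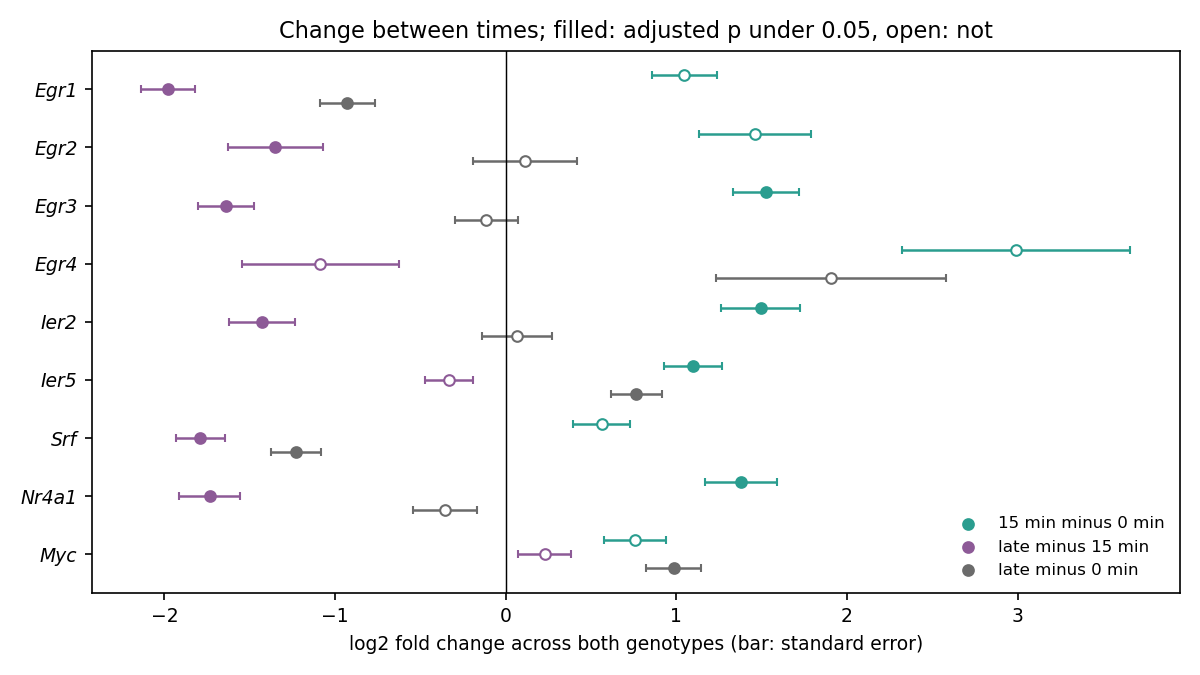
Log2 fold change across both genotypes (horizontal axis, bar: SE) for each gene at 15 min minus 0 min, late minus 15 min and late minus 0 min, filled where the adjusted p is under 0.05. Srf and Egr1 end below their 0 min level (-1.23 and -0.93), and Ier5 and Myc end above it (0.77 and 0.98).

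Against 0 min, the late level split the 9 genes. Srf and Egr1 fell below it, Ier5 and Myc rose above it, and the other 5 did not pass the test. Of all genes, 7.68% rose and 6.16% fell in this comparison (55.5% of calls higher, or 19.0% with total counts), so 2 of 9 each way is above the background but rests on few genes. Srf fell by 1.23 ± 0.15 (adjusted p = 0.00119), and in each genotype its 60 min library was the lowest. Egr1 fell by 0.93 ± 0.16 (adjusted p = 0.00634). Myc rose by 0.98 ± 0.16 (adjusted p = 0.00492), and was highest at 45 min in WT (ratio to 0 min 2.62, interval 2.15 to 3.21) and KO (2.05, 1.76 to 2.39). Ier5 rose by 0.77 ± 0.15 (adjusted p = 0.0107). Late values were 0.11 ± 0.30 for Egr2, -0.11 ± 0.18 for Egr3, 0.07 ± 0.20 for Ier2 and -0.36 ± 0.19 for Nr4a1, with adjusted p from 0.228 to 0.862. Egr4 had 1.91 ± 0.68 (adjusted p = 0.0876). Without WT 0 min, or without genotype as a block, only the call of Srf held, and without KO 0 min that of Ier5 was lost (0.68, adjusted p = 0.0829). In this comparison 4 of 5 cartilage markers fell, and their part in the result was not tested. This fall too rests mainly on KO 0 min, as their sum in WT was 10.5 CPM at 0 min and 8.31 and 11.5 at 45 and 60 min.

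Single late libraries were compared by a descriptive rule (at least 2-fold, counting interval excluding 1, at least 20 counts in the higher library). At 45 min against 0 min in WT, 1 of 9 genes was higher (Myc) and none lower, against 4.13% and 2.84% of all genes. At 60 min in WT, Myc was higher (ratio 2.17, interval 1.77 to 2.67), and Egr1 (0.422, 0.377 to 0.472) and Srf (0.446, 0.384 to 0.517) were lower, against 5.01% and 3.35%. At 45 min in KO, Ier5 (2.21, 1.96 to 2.5) and Myc were higher and Srf (0.484, 0.422 to 0.555) lower, against 2.58% and 2.78%. At 60 min in KO none was higher, where 3.02% of all genes were, and 4 were lower, where 3.22% were. Those 4 were Srf (0.258, 0.217 to 0.306), Egr1 (0.364, 0.324 to 0.407), Nr4a1 (0.452, 0.378 to 0.539) and Egr2 (0.459, 0.345 to 0.606).

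Between 45 and 60 min, Egr1, Egr2 and Nr4a1 were lower by this rule in KO, and none was in WT. In WT 0 of 9 genes were lower, where 0.924% of all genes were. In KO, 3 of 9 were lower, where 0.964% of all genes were. Those 3 were Egr2 (ratio 0.379, interval 0.284 to 0.502), Egr1 (0.466, 0.412 to 0.527) and Nr4a1 (0.478, 0.396 to 0.575). The median log2 ratio of 60 to 45 min was -0.91 in KO and -0.20 in WT over the 9 genes. Each ratio compares 2 libraries, and the change from 45 to 60 min was not tested.

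**Figure D3:**
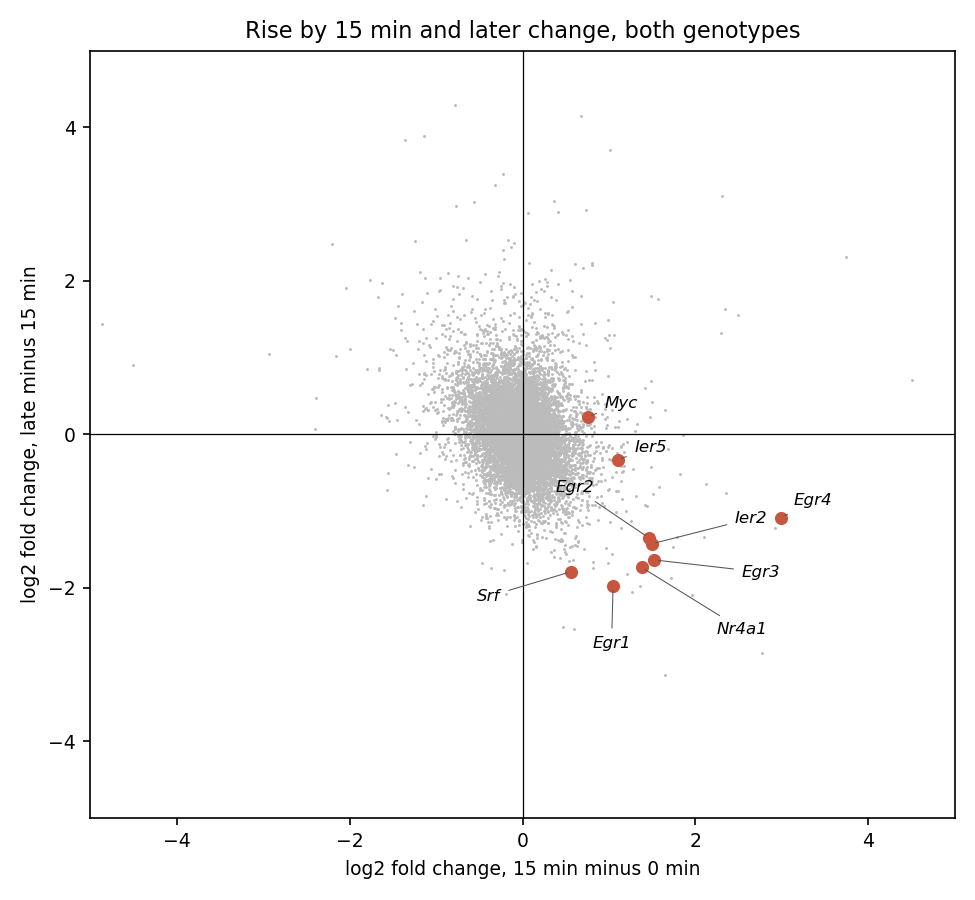
Log2 fold change of each gene from 0 to 15 min (horizontal axis) and from 15 min to the late mean (vertical axis), across both genotypes, for genes whose mean count is 10 or more (grey) and the 9 genes (red, named). The axes share the 15 min libraries, which by itself tilts the cloud, and 8 of the 9 genes lie at lower right while Myc lies at upper right.

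In cells without RelA and cRel, transcripts of Egr3, Nr4a1 and Myc were higher across the 4 times, and none of the 9 was lower by the test. Of all genes 6.81% were higher and 9.44% lower in KO. Egr3 was higher by 0.78 ± 0.14 (adjusted p = 0.00517), with KO above WT at 4 of 4 times. Nr4a1 was higher by 0.75 ± 0.15 (adjusted p = 0.00884), with KO above WT at 0, 15 and 45 min but not at 60 min. Myc was higher by 0.55 ± 0.13 (adjusted p = 0.0160), with KO above WT at 4 of 4 times. At 60 min, however, the counting intervals of the KO to WT ratio included 1 for Egr3 (1.28, 0.91 to 1.8) and Myc (1.09, 0.92 to 1.28). Differences were 0.35 ± 0.14 for Egr1 (adjusted p = 0.107), 0.54 ± 0.24 for Egr2 (adjusted p = 0.168), 0.21 ± 0.17 for Ier2, 0.13 ± 0.12 for Ier5, -0.07 ± 0.12 for Srf and -0.03 ± 0.43 for Egr4. In these bulk samples, fewer cells of a type and less RNA per cell cannot be told apart.

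The ratio of KO to WT was above 1 for most of the 9 genes at 0, 15 and 45 min and for few at 60 min. The number above 1 was 8, 9, 7 and 2 of the 9 at 0, 15, 45 and 60 min, and the median log2 ratio was 0.17, 0.89, 0.44 and -0.30, against 0.00 to 0.01 for all genes. At 0 min that number includes Ier2 and Ier5, each at a ratio of 1.0 (counting intervals 0.851 to 1.18 and 0.871 to 1.15). The share of all genes with a ratio above 1 was not computed. At 0 min only Egr3 passed the 2-fold rule (ratio 2.31, interval 1.72 to 3.14), against 1.91% of genes. At 15 min Egr2 (2.19, 1.85 to 2.6) and Nr4a1 (2.13, 1.91 to 2.37) passed it, against 1.83% of genes, and at 45 and 60 min none did, against 2.75% and 2.43%. The plot of these ratios shows Egr2, Srf, Ier2 and Ier5 below WT at 60 min, short of the 2-fold rule, with counting intervals that exclude 1. Their ratios were 0.585 (0.431 to 0.789), 0.652 (0.533 to 0.797), 0.764 (0.63 to 0.925) and 0.813 (0.718 to 0.92). These intervals cover counting error only, and the share of all genes with an interval below 1 was not computed.

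**Figure D4:**
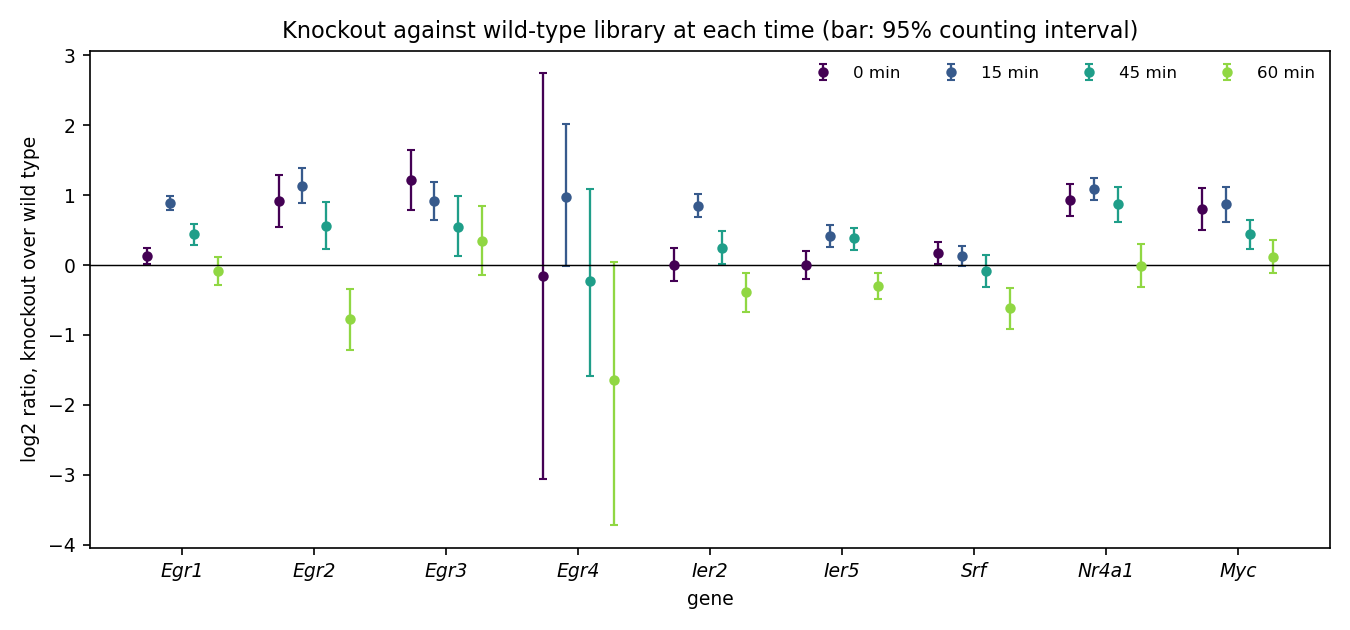
Log2 ratio of the KO to the WT library (vertical axis) for each gene at 0, 15, 45 and 60 min, with bars for the 95% counting interval, which covers counting error only. At 15 min all 9 points lie above 0, and at 60 min 7 lie below it.

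The same genotype contrast held 6 of 7 leukocyte markers lower and 5 of 5 cartilage markers higher in KO, with the summed levels given above. Higher in KO were also 2 of 2 tested endothelial markers, 1 of 1 epithelial and 1 of 2 skeletal muscle markers, while 1 of 10 fibroblast markers was higher and 2 were lower. The part of these markers in the differences of Egr3, Nr4a1 and Myc was not tested. Egr3 was called whichever library was left out. The count of 3 stood without KO 0 min, the library with the high cartilage sum. It was 1 without KO 15 min or KO 45 min, 2 without WT 15 min or WT 45 min, 5 without either 60 min library or with no filter, and 0 without time as a block. Scaling to total counts shifted the median of all genes by -0.17, with 14.1% of calls higher in place of 41.9%, and Myc then missed the threshold (0.37, adjusted p = 0.0574).

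For 3 of the 9 genes, the counting interval of the difference between KO and WT in the change from 0 to 15 min lay above 0. Among 11479 genes with at least 20 counts in all 4 libraries it lay above 0 for 7.67% and below 0 for 9.87%. Their median difference was -0.01, with quartiles of -0.20 and 0.20. The log2 ratio of 15 to 0 min in KO minus that in WT was 0.85 for Ier2 (counting interval 0.57 to 1.13), 0.76 for Egr1 (0.61 to 0.91) and 0.41 for Ier5 (0.16 to 0.66). Ratios were 3.69 in KO and 2.05 in WT for Ier2, 2.65 and 1.56 for Egr1, and 2.46 and 1.85 for Ier5. Intervals for the other 6 genes included 0, from -0.29 for Egr3 to 1.13 for Egr4. By the 2-fold rule 7 of 9 genes were higher at 15 min in KO (0.585% of all genes) and 4 of 9 in WT (0.857%). Each genotype has 1 library per time, so the difference between genotypes was not tested.

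For none of the 9 genes did the difference between genotypes in the late change from 0 min pass the test (0 called, and 0 at an unadjusted p under 0.05, in edgeR, and 0 called in DESeq2 and limma-voom), against 0.492% of genes called larger in WT and 0.00664% larger in KO. WT minus KO differences were 0.87 ± 0.56 for Egr2, 0.74 ± 0.40 for Egr3, 0.49 ± 0.36 for Myc, 0.46 ± 0.40 for Srf, 0.41 ± 0.45 for Nr4a1 and 0.63 ± 1.37 for Egr4. They were 0.02 ± 0.39 for Ier2, -0.08 ± 0.36 for Ier5 and -0.12 ± 0.48 for Egr1. Within genotypes, the late change was, for Srf, -0.97 ± 0.28 in WT and -1.43 ± 0.27 in KO, and for Myc 1.26 ± 0.27 and 0.77 ± 0.25. The standard errors leave room for differences of about the size of the responses themselves. The test takes 45 and 60 min as replicates, so it cannot show differences that change between them. The KO to WT ratio at 45 and 60 min was 1.48 and 0.585 for Egr2, 1.19 and 0.764 for Ier2, and 1.3 and 0.813 for Ier5. It was 1.36 and 0.941 for Egr1 and 1.83 and 0.993 for Nr4a1, whose counting intervals at 60 min included 1. The ratio stayed above 1 at both times for Egr3 and Myc, and below 1 for Srf and Egr4. Of these, the interval included 1 at 60 min for Egr3 and Myc, at 45 min for Srf and at both times for Egr4.

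Of 35 other immediate early genes tested, 6 rose at 15 min and none fell, with a median log2 difference of 0.83. The 6 included Ier3 (1.86 ± 0.24), a survival factor, Btg2 (1.74 ± 0.22), an antiproliferative gene, Dusp1 (1.72 ± 0.19), a MAP kinase phosphatase, and Atf3 (1.51 ± 0.19), a stress transcription factor. At an unadjusted p under 0.05, 26 of the 35 passed, and the share of all genes at that threshold was not computed. From 15 min to late, 13 of these 35 fell and 6 rose. Fos, the AP-1 subunit, fell by 3.13 ± 0.20 and Arc fell by 2.09 ± 0.24, while Klf10 rose by 3.05 ± 0.23. Against 0 min 12 rose late and 1 fell, led by Klf10 (3.41 ± 0.23) and Gadd45b (2.49 ± 0.26). In KO 16 were higher and 3 lower, with Hbegf, an EGF receptor ligand, higher by 1.43 ± 0.16 and Klf2 by 0.99 ± 0.14, and without KO 0 min 17 were higher and 6 lower. The late response was larger in WT for Pim1 (2.45 ± 0.37) and Zfp36 (2.07 ± 0.32), 2 of the 35. Without KO 0 min, 7 rose at 15 min, and late against 0 min 15 rose and 2 fell. With all libraries, 0.126% of all genes rose and 0.0133% fell at 15 min. From 15 min to late 5.87% rose and 5.04% fell, and late against 0 min 7.68% rose and 6.16% fell. In KO 6.81% of all genes were higher and 9.44% lower, and the late response was larger in WT for 0.492%.

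Targets of SRF and MRTF, tested as a list of 19, fell more often than they rose late. At 15 min, 4 rose: Ccn1 (1.34 ± 0.18), Ccn2 (1.28 ± 0.14), Actg1 (1.21 ± 0.14) and Vcl (0.72 ± 0.10). From 15 min to late 12 fell and 1 rose, including Actg1 (-1.83 ± 0.12), Ccn1 (-1.73 ± 0.15) and Myl9 (-1.37 ± 0.15). Against 0 min 9 fell late and 3 rose, among them Vcl (1.41 ± 0.10) and Ccn2 (0.82 ± 0.13), and in KO 6 were higher and none lower. Without KO 0 min only 1 of the 19 rose at 15 min, and late against 0 min 4 fell and 3 rose. Of all genes, with all libraries, 0.126% rose at 15 min, and from 15 min to late 5.04% fell and 5.87% rose. Late against 0 min 6.16% of all genes fell and 7.68% rose, and in KO 6.81% were higher and 9.44% lower. Among 8 tested SRF cofactors and EGR corepressors none passed at 15 min by edgeR, DESeq2 or limma-voom (1 at an unadjusted p under 0.05 in edgeR). Late against 0 min, the EGR corepressor genes Nab2 (0.66 ± 0.10) and Nab1 (0.62 ± 0.16) rose, and the cofactor genes Fhl2 (-0.46 ± 0.11) and Mrtfb (-0.36 ± 0.09) fell. Without KO 0 min 2 of the 8 rose and none fell, so these late counts rest on few genes.

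In the MYC network none of 10 genes passed at 15 min (0 at an unadjusted p under 0.05, and none by DESeq2 or limma-voom), and late only Max, the partner of MYC, rose (0.58 ± 0.14), a call lost without KO 0 min. In the ERK cascade none of 21 passed at 15 min by edgeR, DESeq2 or limma-voom (1 at an unadjusted p under 0.05 in edgeR). Late against 0 min, 1 of the 21 rose and 3 fell, and without KO 0 min none rose and 2 fell. With all libraries, 7.68% of all genes rose and 6.16% fell late against 0 min, so the late counts of these 2 lists are near the background. Spry2, a feedback inhibitor of receptor tyrosine kinase signalling, fell by 0.79 ± 0.13 late against 0 min and by 1.23 ± 0.13 against 15 min, and Spry1 fell by 0.75 ± 0.13 against 15 min.

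The 9 genes did not share a single profile. Over the 8 libraries, the Pearson correlation of log2 CPM between pairs ran from -0.30 (Srf and Myc) to 0.97 (Egr3 and Nr4a1), with 8 of 36 pairs at 0.9 or more. These are descriptions over libraries that share genotype, time and depth. The genes most like each one, among tested genes whose mean count is 100 or more, were Dnajb4 (0.989), Fos (0.983) and Myl12a (0.981) for Egr1, and Cnn2 (0.995), Pdcl3 (0.987) and Pik3r3 (0.982) for Srf. For Ier2 they were Pmaip1 (0.985), Ppp1r15a (0.963) and Btg2 (0.962), and for Egr2 they were Pmaip1 (0.963), H3f3b (0.955) and Dhx9 (0.944). Nr4a1 was most like Pfn1 (0.994), Srpr (0.993) and H3f3b (0.992), and Egr3 most like Srpr (0.984), Pfn1 (0.975) and Nr4a1 (0.972). Among the genes most like Myc were Coq10b (0.972) and Adam19 (0.962). Ier5 was most like Aamp (0.944), Mcl1 (0.936) and Herpud1 (0.931), and the sparsely counted Egr4 most like Ier5 (0.936), Junb (0.901) and Btg1 (0.893).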

How the data were processed

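Chromatin-associated RNA of 8 libraries was depleted of ribosomal RNA and sequenced as stranded, single-end reads, per the labels' protocols. The deposited values are raw counts, 1 value per gene and library, whose length column equals merged exon length, per the file headers. Per the submitters' processing notes the authors used cutadapt 1.12, STAR, featureCounts 1.5.0 and DESeq2 with mm10. Genes that overlap are uncertain, with strand setting, multi-mapping rule and annotation not given in the sources used here. Symbols were found for 98.77% of rows.

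Computed here: the 15049 genes that reached 10 counts in 2 or more libraries were scaled by TMM (0.817 to 1.215). The quasi-likelihood test of edgeR 4.0.16 (R 4.3.3) was applied, and p-values were adjusted over all of them by Benjamini-Hochberg, called at 0.05. Time and genotype effects came from an additive fit (3 residual degrees of freedom), in which the genotypes stand in for replicates of a time, and the difference between late responses from 6 cell means (2 residual degrees of freedom), in which 45 and 60 min stand in for replicates. P-values therefore measure the spread left between these libraries. Standard errors are the log2 fold change over the square root of F. Late is the mean of 45 and 60 min. Ratios carry exact Clopper-Pearson intervals at 95%, which cover counting error only. The interval for the difference of 2 ratios is approximate. No 2 libraries were duplicates (lowest chi-square per degree of freedom 8.45). The code was tested on simulated data.

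The members, gene lists and tests were chosen with earlier results of these data known. Named are all 9 members, at most the 4 genes of each list with the smallest p per contrast, the 3 genes most correlated with each member, and overlapping genes. The values of 1 gene named by this rule are not reported here. Alternatives were DESeq2 1.42.0, limma-voom (limma 3.58.1), RLE scaling, total counts, removal of 2 dominant rows, other count filters, no block, 15 min as baseline for the late difference, and omission of single libraries. Matplotlib 3.10.9 drew the figures.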

Additional observations from a re-analysis of the deposited data

How the results depend on the processing

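Counts of called genes depended on the settings. With DESeq2 they were 1535 for genotype (2446 by edgeR), 35 for 15 against 0 min (21), 1139 for late against 0 min (2083) and 919 for late against 15 min (1643). Without the other factor as a block they were 1067, 0, 120 and 78. No filter gave 205 for 15 against 0 min, 2645 for late against 15 min and 14 for the late difference between genotypes (75), which was 19 with 15 min as baseline. Total counts gave 184 and a filter of 50 counts gave 6 for 15 against 0 min. Leaving out 1 library gave 1154 to 2422, 1 to 31, 591 to 1886, 83 to 1830 and 51 to 160 in the order genotype, 15 against 0 min, late against 0 min, late against 15 min and late difference. With total counts 14.1% of genotype calls were higher (41.9% with TMM), 12.0% at 15 against 0 min (90.5%), 19.0% late against 0 min (55.5%) and 82.1% late against 15 min (53.8%), and the median of all genes shifted by -0.17, -0.34, -0.22 and 0.13.

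Of the 9 genes, 3 were called for genotype, 4 at 15 against 0 min, 4 late against 0 min and 6 late against 15 min. No filter gave 5 and 9 for the former pair. RLE scaling and removal of the dominant rows gave 1, and a filter of 50 counts 0, at 15 against 0 min. Without the block the counts were 0, 0, 1 and 2. Leaving out a library gave 1 to 5, 0 to 6, 1 to 5 and 5 to 7, and none of the alternatives run called any of the 9 in the late difference. Signs turned only for values not called. Under genotype these were Egr4 (0.035 with limma-voom, 0.036 without the block, -0.691 to 0.396 leaving out a library), Srf (0.033 without the block, -0.157 to 0.085 leaving out a library), Ier5 (-0.055 with total counts) and Ier2 (-0.037 to 0.391 leaving out a library). Late against 0 min, Egr2 (-0.11) and Ier2 (-0.15) turned with total counts, and leaving out a library gave -0.339 to 0.501 for Egr2, -0.356 to 0.208 for Egr3 and -0.156 to 0.244 for Ier2. In the late difference, Ier2 was -0.005 with a filter of 50 counts, and Egr1 and Ier5 were 0.64 and 0.33 with 15 min as baseline. Leaving out a library there gave -0.572 to 0.529 for Egr1, -0.346 to 0.495 for Ier2, -0.409 to 0.335 for Ier5 and -0.033 to 1.032 for Nr4a1. The cause of these moves was not tested. Where a library was left out, its time kept 1 library, whose spread is taken from the other times. The late difference cannot be estimated without WT 0 min or KO 0 min. Time as a block matches KO and WT by time, but the labels give no replicate numbers by which cultures could be paired. Each genotype and time has 1 library.

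Depth limits Egr4, with at most 24 counts in any library.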
